A study of Mus musculus with 8 samples.

Results

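Cyp4a12a and Cyp4a12b are neighbouring, closely related genes of mouse chromosome 4, and the cytosines listed in them are described here: 310 of the 8492 sites of the deposited table, 41 in Cyp4a12a and 269 in Cyp4a12b. The members were taken by position alone, as every listed site in a window of 1 Mb of chromosome 4 that holds both genes, and divided by the gene span that holds them. Poly(A) RNA was treated with bisulfite, which converts unmodified cytosine and spares 5-methylcytosine. The methylation level is the percentage of reads in which a cytosine remained, and unmodified cytosine that escaped conversion would add to it. The RNA came from mast cells grown from the bone marrow of C57BL/6 mice in IL-3 and SCF, which carried FcεRI and c-Kit on their surface. The labels describe 8 libraries, 4 of wild type and 4 of Tet2-/- cells. The table gives levels for the Tet2-/- libraries, which the labels divide into 2 biological replicates with 2 technical replicates of each. They are called 1a and 1b (biological replicate 1) and 2a and 2b (biological replicate 2). Levels of wild-type cells were not analysed here, and no value below compares genotypes.

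The title line of the table calls the sites specific to Tet2-deficient cells, by a rule that no source used here gives, and no listed level is under 10%. If the sites were chosen on these same libraries, their levels are no independent evidence, so they are given as a description, and they say nothing of unlisted cytosines in either gene. The table has no read numbers, so depth is unknown and no counting interval is given. Means are over 2 biological replicates after averaging technical ones, and errors are the SD between these. The labels do not say whether the biological replicates are separate animals or cultures.

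Enzymes of cytochrome P450 family 4 sit in the membrane of the endoplasmic reticulum and hydroxylate fatty acids at the end of the chain, with electrons from the reductase encoded by Por. Cyp4a12a is known as an androgen-responsive enzyme of the kidney and liver of male mice that turns arachidonic acid into a vasoconstrictor eicosanoid. Cyp4a12b encodes a very similar protein. Tet2 oxidises 5-methylcytosine, in DNA and also in RNA. Because the paralogues are so alike, reads of one can be placed on the other, and the split of sites between them is uncertain for that reason. How reads with more than one possible place were handled is not given in the sources used here.

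On GRCm38, the RefSeq span of Cyp4a12a runs from 115299046 to 115332815 and that of Cyp4a12b from 115411624 to 115439034, with 78808 bases between them. The listed sites took up a small part of both. In Cyp4a12a they lay from 115313716 to 115314599, which is 884 bases or 2.62% of the span. In Cyp4a12b they lay from 115425995 to 115429885, which is 3891 bases or 14.2% of the span. Counted from the lower-coordinate end of each span, the first site stood at 14670 bases in Cyp4a12a and at 14371 bases in Cyp4a12b. The last one stood at 15553 and 18261 bases. Whether a site is exonic, intronic or in an untranslated region, and on which strand, was not analysed here.

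Both genes held all the listed sites of the window. The annotation has 15 entries of the Cyp4 cluster there, of which 10 are protein-coding, 4 are pseudogenes and 1 is a long noncoding RNA, and 13 of the 15 had 0 listed sites. A listed site is rare among genes: 0.22% of all annotated genes have one in their span (110 of 49997), so a gene without one is the usual case. Among those without a site were Cyp4a10, Cyp4a14, Cyp4a31 and Cyp4a32, members of the same subfamily, and the pseudogene Cyp4a30-ps, which lies between the paralogues from 115343788 to 115363112. Outside the window, the nearest listed sites of chromosome 4 were at 47389977 in Tgfbr1, with a mean level of 18.6%, and at 147797103 in Zfp984, with 33.2%. The outermost members inside it had 29.3% at 115313716 and 26.3% at 115429885.

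Levels were lower in Cyp4a12a than in Cyp4a12b in each of the 4 libraries. The mean over the 41 Cyp4a12a sites was 34.4% in 1a, 21.0% in 1b, 34.3% in 2a and 36.6% in 2b. Library 1b thus stood well under the other 3, which lay close together. The mean over the 269 Cyp4a12b sites was 52.5% in 1a, 52.2% in 1b, 52.1% in 2a and 50.1% in 2b. The libraries of the paralogues did not overlap. Cyp4a12a had 31.6% ± 5.48 and Cyp4a12b 51.7% ± 0.904 (SD, n = 2 for both). The difference, Cyp4a12a minus Cyp4a12b, was -18.1 points in 1a, -31.2 in 1b, -17.8 in 2a and -13.5 in 2b, with a mean of -20.1 ± 6.38 points (SD, n = 2). The difference was larger than the SD between replicates, but an exact two-sided sign-flip permutation test over 2 replicates gave p = 0.5, the smallest p it can give. The difference also rested on how sites were weighted: it was -13.2 ± 5.47 points with each region of sites counted as 1 value and -8.99 ± 6.44 points with each stretch counted as 1 value, both defined below. Without library 1a it was -23.4 ± 11.0 points (SD, n = 2 for all 3).

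Site by site, the paralogues differed in typical level but overlapped. Site means ran from 22.1% to 58.0% in Cyp4a12a and from 16.7% to 83.7% in Cyp4a12b. In Cyp4a12a the site means had quartiles of 25.9% and 33.6% and a median of 28.8%. In Cyp4a12b the quartiles were 39.1% and 64.5% and the median 52.6%, and over all listed sites 30.5%, 72.1% and 49.2%. No Cyp4a12a site reached 50% or more in every library, against 74 of 269 Cyp4a12b sites (27.5%) and 33.6% of all listed sites. Library 1b alone kept the sites at 115314440, 115314515, 115314525 and 115314543 from it, with 40% at the first and 33.3% at the others. Below 50% in every library were 30 of 41 Cyp4a12a sites (73.2%) and 44 of 269 Cyp4a12b sites (16.4%), against 31.4% of all listed sites. At 20% or more in every library were 15 Cyp4a12a sites (36.6%) and 229 Cyp4a12b sites (85.1%), against 75.5% of all. The Cyp4a12a share was set in large part by library 1b, the lowest at 35 of the 41 sites. A level of 100% in at least 1 library was read at 0 Cyp4a12a and 19 Cyp4a12b sites (7.06%), against 16.7% of all. Cyp4a12b thus had few sites at either end of the scale, which the plot of cumulative site levels shows as a steeper curve.

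**Figure D1:**
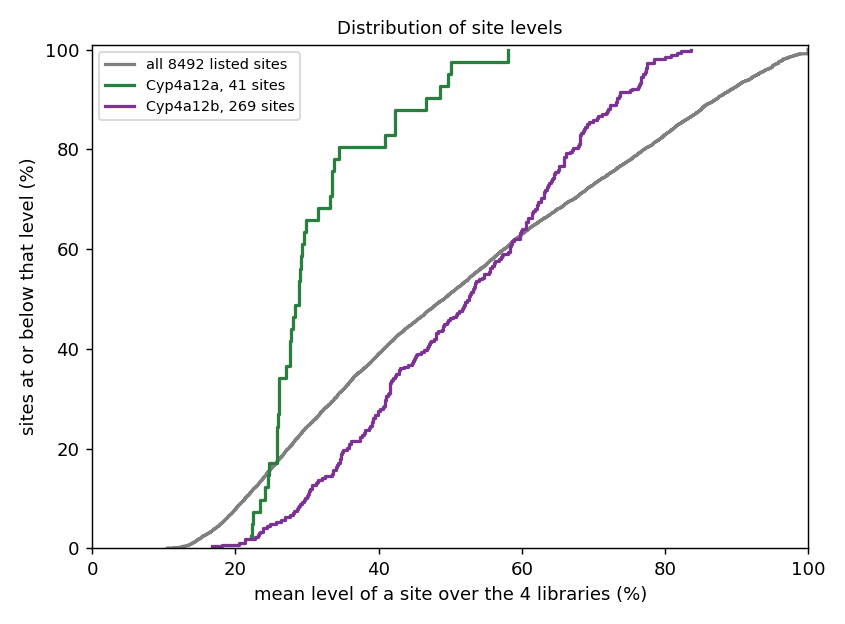
Share of sites in percent (vertical axis) at or below a given mean level over the 4 Tet2-/- libraries in percent (horizontal axis), for the 41 Cyp4a12a sites, the 269 Cyp4a12b sites and all 8492 listed sites. The median is 28.8% for Cyp4a12a, 52.6% for Cyp4a12b and 49.2% for all sites.

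The lowest site mean in Cyp4a12a was 22.1% at 115313833, with 16.7% in 1a, 10% in 1b, 28.6% in 2a and 33.3% in 2b. The highest was 58.0% at 115314440, with 57.1% in 1a, 40% in 1b, 75% in 2a and 60% in 2b. At both of these sites 1b was the lowest library and both libraries of biological replicate 2 were above both of replicate 1. In Cyp4a12b the lowest mean was 16.7% at 115429824, with 16% in 1a, 25% in 1b, 11.5% in 2a and 14.3% in 2b. The highest was 83.7% at 115428718, with 80% in 1a, 83.3% in 1b and 85.7% in both 2a and 2b. These sites were picked as the extremes of their gene, so the gap between them is no result. The Cyp4a12b site with the widest range over libraries was 115429624, with 57.1% in 1a, 100% in 1b, 46.2% in 2a and 25% in 2b.

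**Figure D2:**
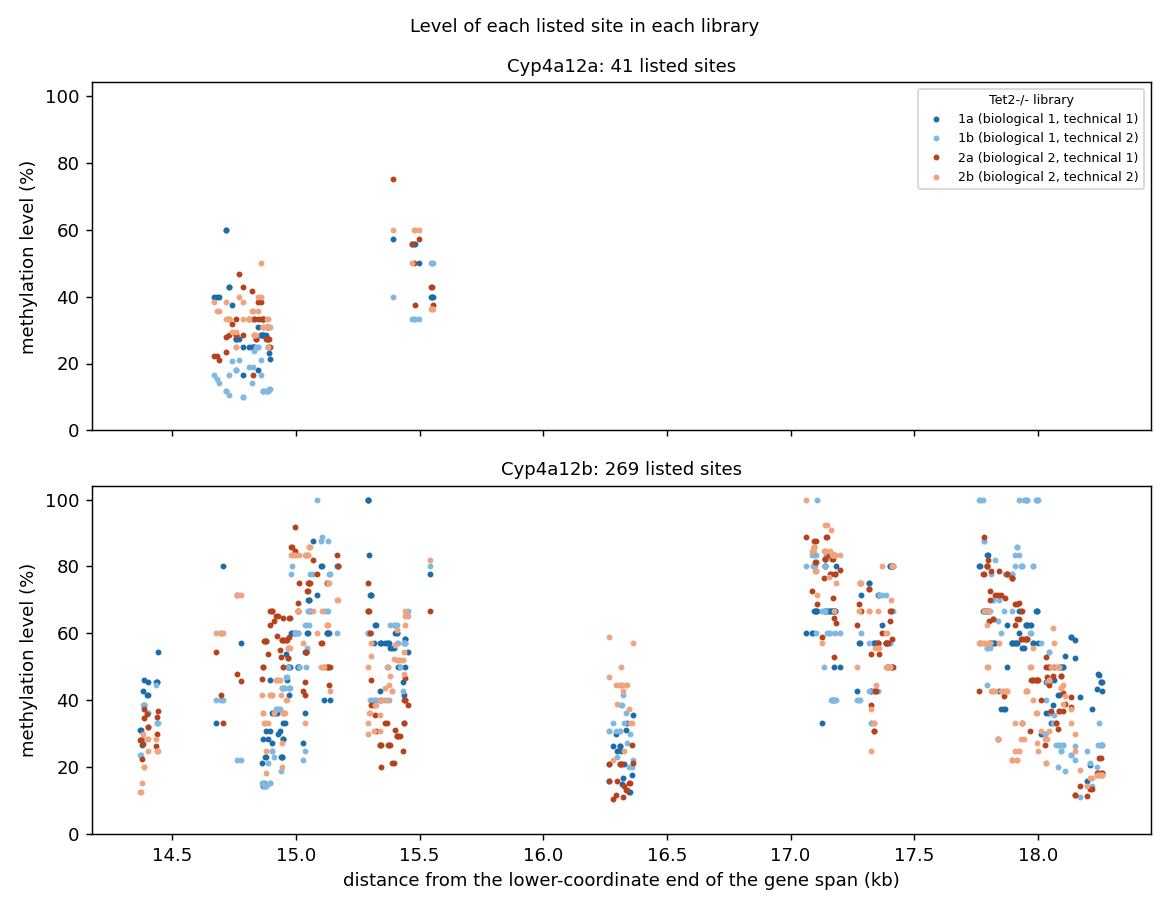
Methylation level in percent (vertical axis) of each listed site in Cyp4a12a (upper panel) and Cyp4a12b (lower panel) against the distance from the lower-coordinate end of the gene span in kb (horizontal axis); each point is 1 site in 1 Tet2-/- library. The 41 Cyp4a12a sites lie within 884 bases and mostly under 50%, while the 269 Cyp4a12b sites form several groups over 3891 bases.

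Sites were grouped in 2 ways. Joining sites up to 500 bases apart into regions gave 1 region in Cyp4a12a and 3 in Cyp4a12b. Joining sites up to 100 bases apart into stretches gave 2 stretches in Cyp4a12a and 6 in Cyp4a12b, numbered here by rising coordinate. The sites were packed densely inside these. The regions of Cyp4a12b held 115 sites over 1171 bases, 17 sites over 100 bases and 137 sites over 1199 bases, which is 9.82, 17 and 11.4 sites per 100 bases. The stretches of Cyp4a12b held 13.5 to 17.8 sites per 100 bases, the first stretch of Cyp4a12a 14.5 and its second 5.

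Stretch 1 of Cyp4a12a, from 115313716 to 115313942, held 33 of the 41 sites. Its mean level was 30.8% in 1a, 16.3% in 1b, 30.6% in 2a and 33.4% in 2b, or 27.8% ± 5.95 (SD, n = 2). The value of 1b lay under the lowest site mean of the stretch, whose site means ran from 22.1% to 34.5%. Stretch 2, from 115314440 to 115314599, held the other 8 sites at 49.2% in 1a, 40.4% in 1b, 49.8% in 2a and 49.9% in 2b, or 47.3% ± 3.55 (SD, n = 2). Again 1b was the low library and the other 3 almost coincided. Stretch 2 was higher than stretch 1 in all 4 libraries, by 18.4 points in 1a, 24.1 in 1b, 19.2 in 2a and 16.5 in 2b, with a mean of 19.6 ± 2.40 points (SD, n = 2). This step inside Cyp4a12a was about as large as the difference between the paralogues.

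In Cyp4a12b the stretches ran from 28.1% to 65.2%. Stretch 1, with 13 sites from 115425995 to 115426067, had 41.3% in 1a, 34.2% in 1b, 31.2% in 2a and 22.8% in 2b, so that both libraries of biological replicate 1 were above both of replicate 2. Stretch 2, with 68 sites from 115426300 to 115426793, had 47.9% in 1a, 48.6% in 1b, 61.0% in 2a and 56.4% in 2b, the opposite order of the replicates. In stretch 3, with 34 sites from 115426914 to 115427165, the order turned again, with 61.4% in 1a, 52.1% in 1b, 38.0% in 2a and 48.3% in 2b. These 3 stretches make up 1 region.

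Stretch 4 was the lowest, with 17 sites from 115427889 to 115427988 at 23.0% in 1a, 30.5% in 1b, 17.1% in 2a and 41.9% in 2b. Both technical replicates labelled 2 were above both labelled 1 there, and the biological means differed little, with 28.1% ± 1.94 (SD, n = 2). Stretch 5 was the highest, with 54 sites from 115428687 to 115429038 at 64.6% in 1a, 57.7% in 1b, 67.6% in 2a and 70.8% in 2b. Its lowest library was above the highest library of stretch 4, of stretch 1 and of all of Cyp4a12a. Stretch 6, with 83 sites from 115429388 to 115429885, had 52.6% in 1a, 59.0% in 1b, 51.0% in 2a and 38.0% in 2b. The libraries of the biological replicates did not overlap in 5 of the 6 Cyp4a12b stretches, all but stretch 4. Replicate 1 was the higher one in 3 of them (1, 3 and 6) and replicate 2 in 2 (2 and 5). In Cyp4a12a the replicates did not overlap in 1 of 2 stretches, stretch 2, and over the whole table in 33.8% of stretches with 5 or more sites (95 of 281). These counts rest on which number of the column names marks the biological replicate. With the second number read so, stretch 4 of Cyp4a12b was the only stretch of either gene without overlap. The share over the whole table was not computed for that reading.

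**Figure D3:**
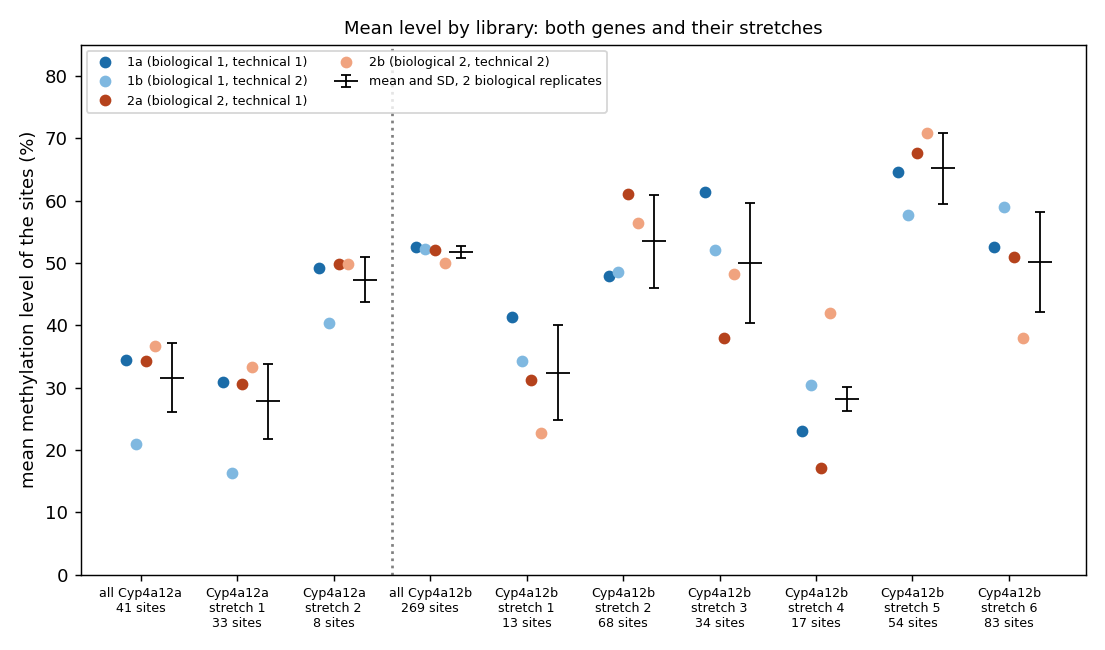
Mean methylation level in percent (vertical axis) of the listed sites of each gene and of each stretch (horizontal axis); coloured points are the 4 Tet2-/- libraries, and the black tick and bar are the mean and SD of 2 biological replicates. Stretches of Cyp4a12b run from 28.1% to 65.2%, and library 1b is the lowest point in both stretches of Cyp4a12a.

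Over all of Cyp4a12b the libraries lay close together, while its single stretches differed between libraries in opposite directions. The library range was 2.46 points for the whole gene and 13.1 to 24.9 points for its 6 stretches. The highest library was 1a in 2 stretches, 1b in 1, 2a in 1 and 2b in 2, and the lowest was 1a in 1, 1b in 1, 2a in 2 and 2b in 2. In Cyp4a12a, 1b was the lowest library at 35 of 41 sites (85.4%), against 68 of 269 Cyp4a12b sites (25.3%) and 31.9% of all listed sites. Over all listed sites the library means were 53.7% in 1a, 49.5% in 1b, 49.9% in 2a and 53.8% in 2b, so 1b was the lowest there as well, by much less. The part of this overall level in the low Cyp4a12a values was not tested. Without 1b, Cyp4a12a had 34.9% ± 0.739 and the paralogues differed by -16.9 ± 1.74 points (SD, n = 2 for both).

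Set against single stretches of Cyp4a12b, stretch 1 of Cyp4a12a lay near the low ones. It differed from stretch 4 of Cyp4a12b by -0.342 ± 4.00 points and from stretch 1 by -4.60 ± 13.5 points, both within the SD. From stretch 5, the highest of the 6, it differed by -37.4 ± 0.255 points (SD, n = 2 for all 3), with single libraries from -41.4 to -33.8 points. Against stretches 2, 3 and 6 of Cyp4a12b, stretch 1 of Cyp4a12a differed by -25.7 ± 1.49, -22.2 ± 15.6 and -22.4 ± 13.9 points (SD, n = 2). Stretch 2 of Cyp4a12a was above stretches 1 and 4 of Cyp4a12b in all 4 libraries and under stretch 5 in all 4. It lay nearest to stretches 3 and 6, at -2.64 ± 13.2 and -2.82 ± 11.5 points (SD, n = 2), both within the SD. The means of the 6 Cyp4a12b stretches had an SD of 13.9 points among them. With 2 stretches in one gene and 6 in the other, which are not replicates, no test of the gene difference against the spread of stretches was made.

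Levels also shifted along single stretches, described here in bins of 100 bases from the first site. In stretch 6 of Cyp4a12b the mean went from 63.9% in bin 1 and 60.3% in bin 2 to 48.5%, 38.3% and 24.4% in bins 3 to 5, by position. The last bin was under the first in every library: 39.4% after 60.8% in 1a, 23.5% after 72.3% in 1b, 17.2% after 70.7% in 2a and 17.3% after 51.9% in 2b. In bin 2 of that stretch the libraries were widest apart, with 85.7% in 1b and 32.2% in 2b. The mean of stretch 2 was lowest in bin 2, with 51.0% in bin 1 (4 sites), 34.4% in bin 2 (5 sites), 42.0% in bin 3, 65.5% in bin 4 and 66.2% in bin 5. In 2a the lowest was bin 1, with 44.3%, and in 2b it was bin 3, with 39.8%. Bin 4 of stretch 2 was above bin 3 in all 4 libraries, but in 2b bin 1, with 62.9%, was slightly above bin 5, with 62.3%. Stretch 5 had means of 75.8% in bin 1, 65.8% in bin 2, 53.6% in bin 3 and 63.0% in bin 4. Libraries differed in this order: in 1a bin 4 was the highest, with 69.4%, and in 1b bin 2 was the lowest, with 44.0%. In the mean, stretch 1 of Cyp4a12a was flat by comparison, with 29.4%, 28.0% and 24.0% in its 3 bins. Single libraries moved more, with 39.4%, 25.7% and 26.6% in 1a and 29.0%, 33.4% and 26.9% in 2a. In each of these bins 1b was the lowest library, with 16.1%, 18.2% and 12.0%.

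**Figure D4:**
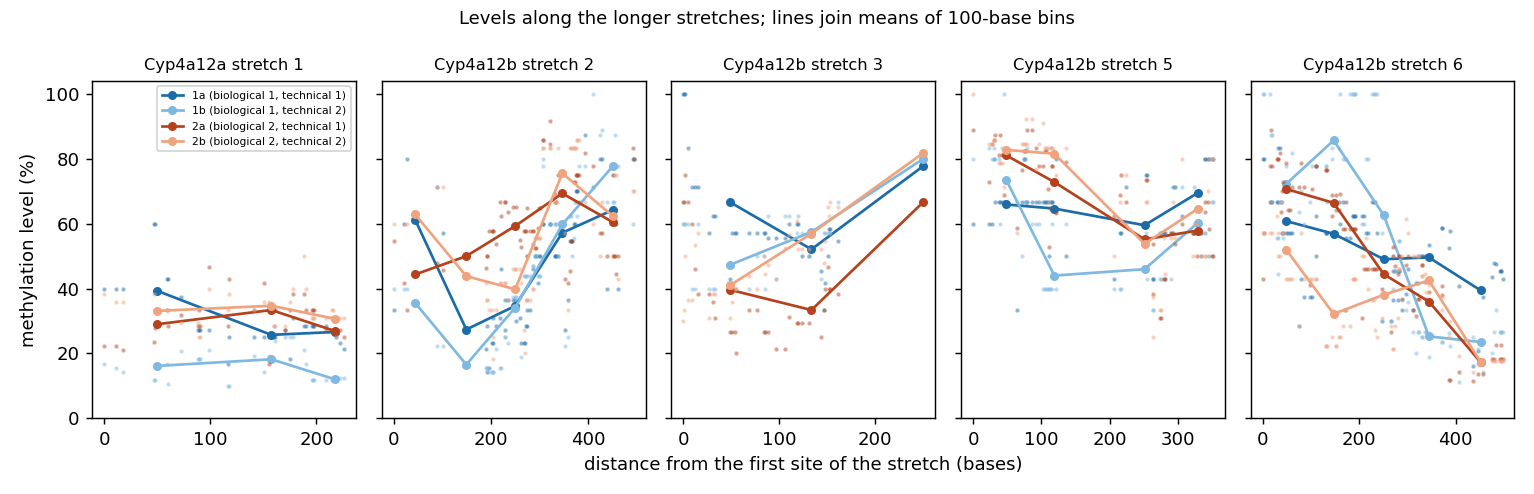
Methylation level in percent (vertical axis) against distance in bases from the first site of the stretch (horizontal axis) for stretch 1 of Cyp4a12a and stretches 2, 3, 5 and 6 of Cyp4a12b; faint points are sites, and lines join the means of 100-base bins of each Tet2-/- library. In the mean over biological replicates, stretch 6 goes from 63.9% in its first bin to 24.4% in its last. Stretch 2 goes from 51.0% through 34.4% to 66.2%, but library 2a does not dip. Stretch 1 of Cyp4a12a stays between 24.0% and 29.4% in that mean, but library 1a goes from 39.4% in its first bin to 26.6% in its last.

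The median distance to the next listed site was 5.5 bases in Cyp4a12a and 4 bases in Cyp4a12b. Another listed site lay within 10 bases of 37 of 41 Cyp4a12a sites (90.2%) and 257 of 269 Cyp4a12b sites (95.5%), against 93.7% of all listed sites. A site directly followed another listed cytosine at 10 Cyp4a12a sites (24.4%) and 61 Cyp4a12b sites (22.7%), against 22.3% of all. The longest runs of adjacent listed positions were 3 bases in both, with 2 such runs in Cyp4a12a and 9 in Cyp4a12b. These shares lay near those of the whole table.

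Since the paralogues are similar, it was asked whether the listed positions of one could be laid over those of the other by a single shift. The best shift placed 14 of the 41 Cyp4a12a sites (34.1%) on Cyp4a12b sites, and the next best 12. With one gene mirrored, the best was also 14 and the next 13. No single shift stood out, and 17 shifts in the same orientation and 33 mirrored ones placed 11 or more sites. Insertions and deletions between the genes would break such a match, and the sequence of the locus was not used here, so paired positions were not compared. No sequence of either gene or its promoter is printed for the same reason.

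Neighbouring sites often had the same level in a library. Of consecutive Cyp4a12a sites up to 10 bases apart, the levels were equal in 58 of 112 comparisons (51.8%, over 28 site pairs in 4 libraries). In Cyp4a12b they were equal in 380 of 884 (43.0%, over 221 pairs), against 38.5% in the whole table. All 4 libraries were equal at 4 of 28 Cyp4a12a pairs (14.3%) and 16 of 221 Cyp4a12b pairs (7.24%), against 6.61%. Sites this close can be covered by the same reads and are not independent.

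Deviations of a site from its own mean over libraries, after removal of the library means of the gene, correlated between sites 1 to 10 bases apart at 0.634 in Cyp4a12a (49 pairs) and 0.812 in Cyp4a12b (470 pairs). At 11 to 50 bases the values were 0.214 (167 pairs) and 0.596 (1600 pairs). At 51 to 150 bases they were -0.222 (267 pairs) and 0.271 (2786 pairs), and at 151 to 300 bases -0.141 (73 pairs) and -0.0762 (2880 pairs). These correlations are across pairs of sites, which share libraries, reads and sites and are not independent, and they carry no test. Over all listed sites the values at the same distances were 0.758, 0.506, 0.249 and 0.0366. There the library means of all sites were removed, so shifts of single genes were kept and the comparison is not like for like. Centring a gene with few sites on its own means can also push the values of distant pairs under 0.

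Between pairs of libraries, the mean absolute difference at a Cyp4a12b site was 15.5 points within a biological replicate and 17.0 points across replicates, against 13.5 points for both over all listed sites. In Cyp4a12a it was 10.9 and 12.3 points. Pearson's r between libraries across the 269 Cyp4a12b sites ranged from 0.339 to 0.568, and across the 41 Cyp4a12a sites from 0.381 to 0.693. It was 0.759 to 0.801 over all listed sites, which cover a wider range of levels. Both libraries of biological replicate 2 were above both of replicate 1 at 18 of 41 Cyp4a12a sites (43.9%) and 62 of 269 Cyp4a12b sites (23.0%), against 15.7% of all. The opposite held at 1 Cyp4a12a site (2.44%) and 53 Cyp4a12b sites (19.7%), against 14.7% of all.

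Other genes of the pathway were counted from lists. Their counts are to be read against the 0.22% of annotated genes with a listed site. Of 20 genes of cytochrome P450 family 4, the 2 paralogues alone had listed sites. Both are described here because they hold listed sites, so their count is no result. The other genes of that list had none. Of 24 genes of eicosanoid metabolism and the P450 redox partners, 23 were matched to the annotation and 1 had a site, Hpgds, the prostaglandin D synthase of mast cells, with 1 site. Por, the leukotriene genes Alox5 and Ltc4s, and the cyclooxygenases Ptgs1 and Ptgs2 had none. Of 14 mast cell markers, Cpa3 and Il1rl1 had sites. None of 8 hepatocyte and 8 kidney proximal tubule markers did, and of 3 basophil markers Cd200r3 had sites. The table holds no expression values, so these counts do not check the cell type, and absence from it may mean too few reads.

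By number of sites, Cyp4a12b ranked 7 and Cyp4a12a 34 among the 110 genes with listed sites. Among the 45 genes with 20 or more sites, Cyp4a12a had the sixth lowest mean level and Cyp4a12b stood at 26 from the lowest. The genes nearest to Cyp4a12b, by the summed absolute difference of the 4 library means, were Inpp4b, a phosphoinositide phosphatase, at 7.41 points, Gpr141, an orphan receptor, at 8.51 and Mctp1, a calcium-binding membrane protein, at 11.3. Their mean levels were 51.7%, 52.7% and 51.6%. Nearest to Cyp4a12a were Ulbp1, a ligand of the receptor NKG2D, at 10.5 points, the gene model Gm36408 at 14.8 and Cd200r3, an activating receptor, at 15.3, with mean levels of 30.7%, 35.3% and 31.5%. These 3 were picked for likeness in the 4 libraries, and 1b was the lowest in each, with 24.5% in Ulbp1, 31.6% in Gm36408 and 28.1% in Cd200r3, against 21.0% in Cyp4a12a.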

How the data were processed

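Per the labels' protocols, poly(A) RNA was treated with DNase, converted with bisulfite beside unmethylated lambda RNA and sequenced as stranded paired-end libraries. The submitters' processing notes name mm10 and GRCm38. No source used here names the aligner, site caller, coverage minimum, conversion rate or selection rule. Per the file headers, the deposited values are methylation rates, a fraction per site and library, multiplied here to percent. Columns were matched to titles by reading the first number of a column name as the biological replicate. The values cannot settle this.

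Gene spans came from RefSeq GRCm38.p6. The members, lists and named genes were chosen with earlier results of these data known. Named genes are the paralogues, the extreme sites, members of the lists with sites, and the 3 genes nearest in library means. Grouping by stretches, the bins, the counts of stretches, the shift search and the counts of lowest libraries were chosen after seeing the data. Equal levels are those within 1e-06 points. The planned comparison of genotypes, its test and the alternative on paired positions were not run, for want of wild-type levels and sequence. No column of another sample was used. The scripts were tested on simulated data. Tables were handled in pandas 2.3.3 and numpy 2.4.6 under Python 3.11.15, statistics came from scipy 1.17.1 and plots from matplotlib 3.10.9.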

Additional observations from a re-analysis of the deposited data

Results flagged for a closer look

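A library far from the other 3 was looked for in 13 values (the paralogues, their difference, and regions and stretches, several of which overlap). It was found in 5. Chance flags about 1 in 20 groups of 4 independent values, but these libraries are technical pairs of 2 biological replicates and the flagged values share sites, so that rate is only a rough guide. In Cyp4a12a library 1b was low, and its gap to the next library made up 0.855 of the whole range. The same library was low in stretch 1 of Cyp4a12a, with a gap of 0.837 of the range, and in stretch 2, with 0.930. The value of the gene shares its sites with both stretches. The stretches share no site with each other but come from the same libraries, so these are not 3 independent values. Library 2b was low in Cyp4a12b, with a gap of 0.848 of a range of only 2.46 points, and in its region 3, with 0.847. In region 3, which joins stretches 5 and 6, 2b had 50.9% and the other libraries 57.3% to 58.5%.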

How the results depend on the processing

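Cyp4a12a stayed under Cyp4a12b in all 12 alternatives run, with differences from -24.7 to -8.99 points. Each stretch as 1 value and single libraries left out were added after seeing the data. Leaving out a replicate or a library, or reading the headers the other way, could not change the sign. Cyp4a12a was lower in each of the 4 libraries, so these settings are no further support. The Cyp4a12b level of 51.7% became 57.0% for sites with no other within 10 bases (12 sites), 44.8% with each region and 46.5% with each stretch as 1 value, and 55.9% for sites at 20% or more in every library. The Cyp4a12a level of 31.6% became 41.8% (4 sites), 37.6% with each stretch as 1 value and 39.6%, in the same settings; its single region left it as it was. Leaving out a replicate gave 51.1% to 52.4% for Cyp4a12b, 27.7% to 35.5% for Cyp4a12a and -24.7 to -15.6 points for the difference. Joining up to 100 bases gave 2 groups in Cyp4a12a and 6 in Cyp4a12b, and up to 1000 bases 1 in each. At 20% or more in every library, 15 Cyp4a12a sites were left, a count set in large part by library 1b. If "rep" in the headers marks the biological replicate, the SD was 3.94 for Cyp4a12a, 0.836 for Cyp4a12b and 3.11 for the difference. With that reading the SD of stretch 4 of Cyp4a12b was 11.4 points in place of 1.94. It was then the only stretch of either gene whose replicates did not overlap. Counts of sites by replicate order were not made for that reading. No paired analysis was possible because pairing by replicate number across genotypes needs wild-type levels, which were not analysed here; the paralogues were compared within libraries. The limits set by depth are unknown, as the table has no read numbers.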
